A study of Mus musculus with 24 samples.

Results

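The insulin-like growth factor (IGF) genes of the liver array comprised 10 genes, namely the ligand Igf1, its receptor Igf1r, the acid-labile subunit Igfals and the binding proteins Igfbp1 to Igfbp7. They were chosen by gene name among the probes that are not controls. These 10 genes were read by 18 of 56605 probes, which carried 37074 different gene names in all. For each gene the probe with the highest mean signal over the 24 arrays was used, and the others served as a check. All 10 chosen probes were well above background on 24 of 24 arrays and passed the filter on dim probes, as did the probes of 21372 genes in total.

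The livers formed 4 groups of 6 mice each. LKO mice carried a floxed Pik3ca gene, which encodes the p110α catalytic subunit of phosphoinositide 3-kinase, and an albumin-Cre transgene, whose promoter directs the deletion to hepatocytes and leaves the other liver cells with the floxed gene. LWT mice were littermates that carried the floxed gene without Cre. The albumin-Cre line was on a C57BL/6J background. All were males of 12 weeks, either fed ad libitum (LWT_Fed, LKO_Fed) or fasted for 24 h (LWT_Fasted, LKO_Fasted), and all were killed at zeitgeber time 16. Each array held the RNA of 1 liver, and no source mentions pooling.

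Liver is the main source of circulating IGF-1, which hepatocytes make under growth hormone acting through its receptor and STAT5. In blood most IGF-1 travels in a ternary complex with IGFBP3 or IGFBP5 and the acid-labile subunit, which prolongs its life in the circulation. IGFBP1 is made by hepatocytes when insulin is low, under the transcription factor FOXO1, and restrains free IGF-1 in the short term, while IGFBP2 also rises in insulin deficiency.

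Values are log2 signals after quantile normalization, and differences between them are log2 fold changes fitted with limma over all arrays. A gene was called when its Benjamini-Hochberg adjusted p, computed over 32197 probes, reached 0.05 or less with a fold change over 1.5. Probes differ in brightness for reasons unrelated to abundance, so levels were compared between groups and never between genes. Whole liver was measured, in which fewer cells of a type and less RNA per cell cannot be told apart.

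The 7 hepatocyte markers examined were well above background, with a mean level of 17.05 to 17.47 over the 24 arrays. By array, 54.74% to 63.01% of spots exceeded background clearly, and 0 were saturated. The single Pik3ca probe was 0.58 higher in arrays labelled LKO_Fed than in LWT_Fed (adjusted p = 0.00133) and differed by -0.02 between the fasted groups (adjusted p = 0.925). Its position relative to the deleted exons was not examined, so it does not check the genotype labels. The LKO_Fasted arrays split on the second principal component (13.6% of the variance). Replicates 1 and 2, at -35.1 and -31.3, lay nearest to the LKO_Fed arrays (-29 to -19.1), and the other LKO_Fasted arrays, at -2.9 to -1.4, lay between those and the LWT arrays (15.2 to 27). The lowest array weight, 0.31, went to LWT_Fed replicate 3.

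The members that moved most have known control by insulin or growth hormone, so the 250 bases before their start sites are shown from RefSeq (build GRCm38.p6, plus strand). Capitals mark matches to the motifs searched, and the Igfbp2 stretch holds none. The first is Igfbp1 (chr11:7197537-7197786), the gene with the widest range over the groups.
Igfbp1: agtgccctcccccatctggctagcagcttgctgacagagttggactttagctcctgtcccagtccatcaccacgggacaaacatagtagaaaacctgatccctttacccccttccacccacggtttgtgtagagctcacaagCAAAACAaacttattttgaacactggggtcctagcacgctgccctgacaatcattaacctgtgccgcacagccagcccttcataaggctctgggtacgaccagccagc
The next is the first of 2 listed starts of Igfbp2 (chr1:72824230-72824479), which followed a similar order of groups.
Igfbp2: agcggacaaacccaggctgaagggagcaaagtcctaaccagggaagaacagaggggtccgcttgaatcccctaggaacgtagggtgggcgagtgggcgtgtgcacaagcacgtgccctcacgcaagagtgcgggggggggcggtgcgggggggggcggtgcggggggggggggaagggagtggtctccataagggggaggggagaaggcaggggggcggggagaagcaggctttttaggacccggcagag
The last is the first of 3 listed starts of Igfals (chr17:24877594-24877843), a growth hormone target that fell with fasting in LKO livers. This stretch lies within the span of the long non-coding RNA gene Gm41549.
Igfals: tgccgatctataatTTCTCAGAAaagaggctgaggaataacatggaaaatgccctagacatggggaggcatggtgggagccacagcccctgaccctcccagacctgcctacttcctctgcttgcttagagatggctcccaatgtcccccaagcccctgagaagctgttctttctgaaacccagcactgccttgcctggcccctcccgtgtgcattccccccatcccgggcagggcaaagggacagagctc

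The motifs were searched on both strands of the 250 bases before each of 32851 start sites. The insulin response motif CAAAACA (reverse complement TGTTTTG) was found at 5.56% of all starts and at 1 of the 13 starts of the members, that of Igfbp1, from 108 to 102 bases before the start. The STAT5 motif TTCNNNGAA, which is its own reverse complement, was found at 7.02% of all starts and at 2 of 13 here, both of Igfals, as TTCTCAGAA and TTCCTAGAA. The FOXO motif TGTTTAC (reverse complement GTAAACA) occurred at 3.17% of all starts and at 1 of 13, the second start of Igfals. The 13-base HNF1 motif occurred at 3 of all starts and at none of the 13. A match of letters is a description and no test of binding, and a lack of match does not show absence of binding.

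**Figure D1:**
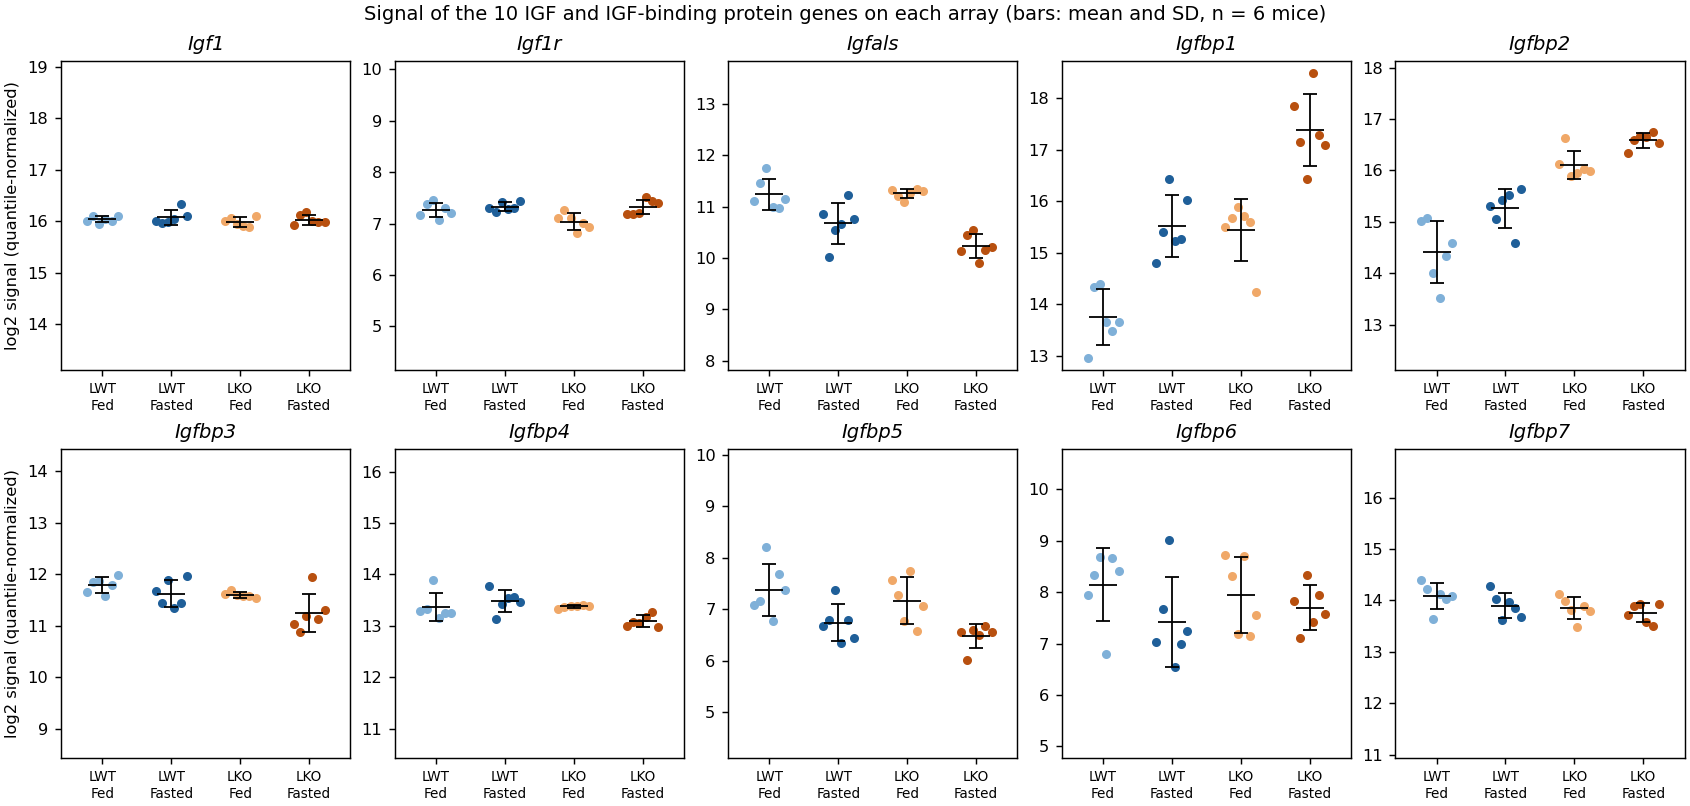
Log2 signal of each of the 10 genes on every array, by group. Points are mice, horizontal bars are means and whiskers are SD (n = 6), and every panel spans the same number of log2 units. Igfbp1 and Igfbp2 climb from LWT_Fed to LKO_Fasted, Igfals drops with fasting, and Igf1 stays between 15.89 and 16.34.

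Igf1 encodes the ligand. Its brightest probe ranged from 15.95 to 16.11 in LWT_Fed (median 16.03), from 15.97 to 16.34 in LWT_Fasted (median 16.02), from 15.89 to 16.1 in LKO_Fed (median 15.97) and from 15.92 to 16.18 in LKO_Fasted (median 15.99). The 4 groups overlapped throughout. Fasting changed it by 0.05 in LWT (95% interval -0.08 to 0.18, adjusted p = 0.587) and by 0.07 in LKO (-0.08 to 0.21, adjusted p = 0.483). The genotype difference was -0.07 in fed livers (-0.20 to 0.07) and -0.05 in fasted livers (-0.19 to 0.09), so that these intervals exclude a change of 1.5-fold on this probe.

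The 2 other Igf1 probes behaved differently from the brightest one. The brightest probe lies at chr10:87393516-87393575 (mm9), the second at chr10:87378456-87378515 and the third at chr10:87325382-87325441, and the files tie each to another transcript (NM_010512, NM_184052 and AK050118). The second probe went from 10.61 ± 0.42 in LWT_Fed to 11.34 ± 0.46 in LWT_Fasted (SD, n = 6), which is 0.88 higher (SE 0.245, adjusted p = 0.00597). The third probe went from 10.08 ± 0.84 to 11.18 ± 0.93, a change of 1.20 (SE 0.343, adjusted p = 0.00734). In both cases the arrays of the fed and fasted LWT groups overlapped.

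In LKO the second Igf1 probe changed by 0.56 with fasting (95% interval -0.01 to 1.13, adjusted p = 0.107) and the third by 0.95 (0.16 to 1.74, adjusted p = 0.0506). Neither passed the test. The difference between the 2 genotypes in this response did not pass either, at -0.32 (adjusted p = 0.648) and -0.25 (adjusted p = 0.821). In fed livers the second probe was 0.66 higher in LKO than in LWT (95% interval 0.14 to 1.18, adjusted p = 0.0787). The third was 0.47 higher (-0.26 to 1.2, adjusted p = 0.401). In fasted livers these genotype differences were 0.34 (adjusted p = 0.414) and 0.22 (adjusted p = 0.73). None of them passed the test. The reason why the Igf1 probes differ was not tested.

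**Figure D2:**
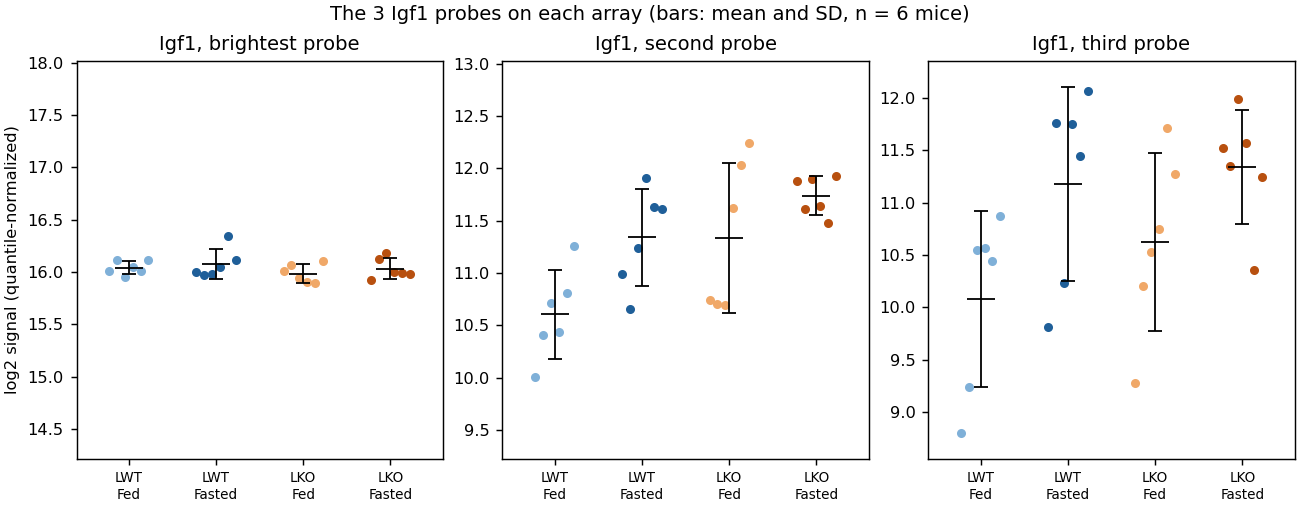
Log2 signal of the 3 Igf1 probes on every array, by group, with panels of equal span. Points are mice, bars are means and whiskers are SD (n = 6). The brightest probe is flat while the other two rise from LWT_Fed to LWT_Fasted with wide spread.

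Igf1r encodes the receptor tyrosine kinase for IGF-1, which adult hepatocytes express sparsely. Its brightest probe had means of 7.27 ± 0.14 in LWT_Fed, 7.33 ± 0.08 in LWT_Fasted, 7.04 ± 0.16 in LKO_Fed and 7.32 ± 0.14 in LKO_Fasted. It rose by 0.26 with fasting in LKO (SE 0.0788, adjusted p = 0.0106), a 1.2-fold change, while the change in LWT was 0.12 (adjusted p = 0.192). The second probe rose in both genotypes, by 0.36 in LWT (adjusted p = 0.000202) and by 0.28 in LKO (adjusted p = 0.00558). The other 2 probes were well above background on 17 and 13 of 24 arrays, and their changes with fasting, 0.10 to 0.12, did not pass the test.

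Igfals encodes the acid-labile subunit that completes the ternary complex. Its log2 signal ran from 10.98 to 11.75 in LWT_Fed (median 11.13), from 10.02 to 11.22 in LWT_Fasted (median 10.71), from 11.09 to 11.34 in LKO_Fed (median 11.29) and from 9.91 to 10.54 in LKO_Fasted (median 10.18). In LKO every fasted liver lay below every fed liver, whereas in LWT the fed and fasted livers overlapped. Fasting lowered Igfals by 0.98 in LKO (SE 0.144, adjusted p = 1.04e-05), which left 50.8% of the fed level, and this was called. In LWT the change was -0.38 (SE 0.129, adjusted p = 0.0229), 77% of the fed level, which passed the adjusted p but not the fold minimum.

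The fed genotype difference of Igfals was 0.11 and did not pass the test (95% interval -0.17 to 0.39, adjusted p = 0.629). In fasted livers LKO was lower than LWT by 0.49 (SE 0.141, adjusted p = 0.0168), with overlapping arrays. The difference between the 2 fasting responses was -0.60 (95% interval -1 to -0.20, adjusted p = 0.0605) and did not pass the test. It passed without LWT_Fed replicate 2 or 3, LWT_Fasted replicate 2 or 3 or LKO_Fasted replicate 2, each left out alone, with values of -0.67 to -0.64. It also passed with the replicate number as a block (-0.7, adjusted p = 0.0455) and in the deposited matrix (-0.6, adjusted p = 0.0435), which makes 7 of 34 alternatives. With equal array weights it was -0.46 (adjusted p = 0.235), the highest adjusted p among the 34, and LWT_Fed replicate 3, which had the lowest weight, was the highest Igfals array of its group.

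Igfbp1 encodes the acutely insulin-repressed binding protein. Its log2 signal ran from 12.96 to 14.4 in LWT_Fed (median 13.66), from 14.79 to 16.44 in LWT_Fasted (median 15.33), from 14.24 to 15.89 in LKO_Fed (median 15.64) and from 16.44 to 18.49 in LKO_Fasted (median 17.22). LWT_Fed was lowest and LKO_Fasted highest, and between them the ranges of LWT_Fasted and LKO_Fed overlapped, with means of 15.52 ± 0.60 and 15.44 ± 0.60. Fasting raised Igfbp1 by 1.99 in LWT (SE 0.317, adjusted p = 2.91e-05), a 3.96-fold rise with no overlap of arrays. In LKO it rose by 1.73 (SE 0.353, adjusted p = 0.000417), a 3.32-fold rise, again without overlap.

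In fed livers Igfbp1 was 1.89 higher in LKO than in LWT (SE 0.325, adjusted p = 0.000523). The fed groups overlapped because of LKO_Fed replicate 6, at 14.24, while the other LKO_Fed livers lay between 15.5 and 15.89. In fasted livers LKO exceeded LWT by 1.63 (SE 0.346, adjusted p = 0.00188). The fasted groups did not overlap but met at 16.44 after rounding, the highest LWT_Fasted and the lowest LKO_Fasted value. The genotype difference in the fasting response was -0.25 (95% interval -1.24 to 0.73, adjusted p = 0.797), an interval that leaves room for a smaller and for a larger response in LKO.

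Igfbp2, the other binding protein that rises when insulin action is low, followed the same order of genotypes. Its log2 signal ran from 13.51 to 15.07 in LWT_Fed (median 14.46), from 14.59 to 15.64 in LWT_Fasted (median 15.37), from 15.89 to 16.63 in LKO_Fed (median 16.01) and from 16.33 to 16.74 in LKO_Fasted (median 16.62). Every LKO liver, fed or fasted, lay above every LWT liver, fed or fasted. The SD was 0.60 in LWT_Fed and 0.14 in LKO_Fasted.

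Igfbp2 was higher in LKO than in LWT by 1.64 in fed livers (SE 0.204, adjusted p = 3.11e-05) and by 1.24 in fasted livers (SE 0.217, adjusted p = 0.000341), 3.11-fold and 2.37-fold. Fasting raised it by 0.86 in LWT (SE 0.199, adjusted p = 0.00134), with overlapping arrays. In LKO the change with fasting was 0.47 (95% interval 0.01 to 0.93, adjusted p = 0.0966), which did not pass. The difference between those responses was -0.39 (95% interval -1.01 to 0.23, adjusted p = 0.461), so a smaller response in LKO was not shown.

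**Figure D3:**
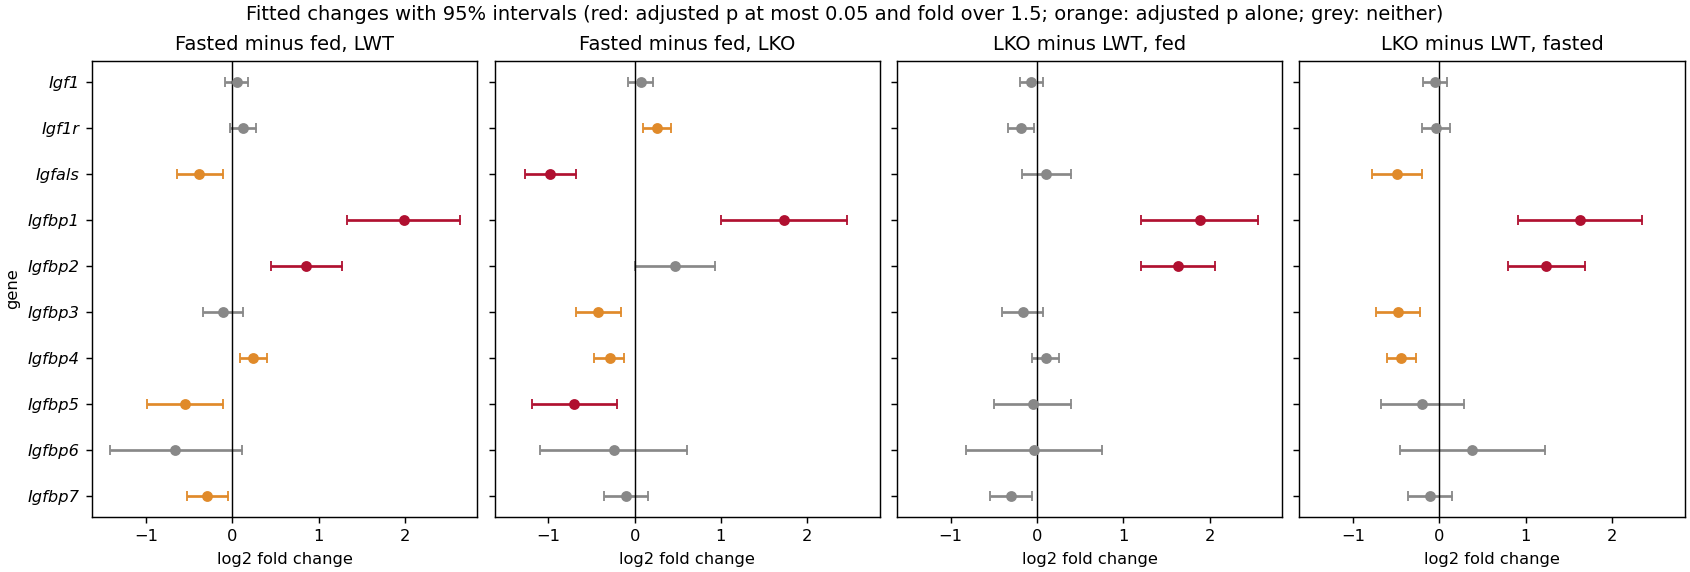
Fitted log2 fold changes with 95% intervals for the 10 genes in the 4 pairwise comparisons of groups. Red marks an adjusted p of at most 0.05 with a fold change over 1.5, orange the adjusted p alone and grey neither. Igfbp1 is red in all 4 panels, at 1.63 to 1.99.

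Igfbp3 encodes the main carrier of IGF-1 in the ternary complex, and liver endothelial and Kupffer cells are known sources of it. Its log2 signal had means of 11.79 ± 0.15 in LWT_Fed, 11.63 ± 0.26 in LWT_Fasted, 11.60 ± 0.06 in LKO_Fed and 11.25 ± 0.37 in LKO_Fasted. In fasted livers it was 0.48 lower in LKO than in LWT (SE 0.122, adjusted p = 0.00766), and it was 0.42 lower in fasted than in fed LKO (SE 0.124, adjusted p = 0.00899). Both changes were below the fold minimum and their arrays overlapped, LKO_Fasted replicate 4 lying at 11.95 and the other 5 between 10.88 and 11.3. LKO_Fasted replicate 4 had an array weight of 0.35, near the lowest weight of 0.31. Without LKO_Fasted replicates 1 and 2 the values of Igfbp3 were -0.37 (adjusted p = 0.0561) and -0.32 (adjusted p = 0.0651). Over 35 alternatives the adjusted p reached 0.0706 between fasted genotypes, passing in 33. With fasting in LKO it reached 0.0651, passing in 34.

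Of the 8 endothelial markers, 0 passed limma's adjusted p between the fasted genotypes and 1 had an unadjusted p under 0.05, and their mean level was 9.95 to 10.92 in LWT_Fasted and 10.19 to 10.67 in LKO_Fasted. The mean level of the 7 Kupffer markers was 10.51 to 11.85 in LWT_Fasted and 10.46 to 12.71 in LKO_Fasted, and 0 passed, with 1 at an unadjusted p under 0.05. The part of these cells in the Igfbp3 values was not tested.

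Igfbp4 encodes a binding protein that inhibits IGF action until it is cleaved. Its log2 signal ran from 13.16 to 13.9 in LWT_Fed (median 13.27), from 13.13 to 13.77 in LWT_Fasted (median 13.51), from 13.33 to 13.41 in LKO_Fed (median 13.38) and from 12.97 to 13.27 in LKO_Fasted (median 13.06). Every fasted LKO liver lay below every fed LKO liver, while the LWT groups overlapped. Fasting changed Igfbp4 in opposite directions, by 0.24 in LWT (SE 0.0759, adjusted p = 0.0124) and by -0.29 in LKO (SE 0.0844, adjusted p = 0.00773). The difference between the 2 responses was -0.54 (SE 0.113, adjusted p = 0.00594), a 1.45-fold difference that lay below the fold minimum.

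The second Igfbp4 probe, at chr11:98909591-98909650 (mm9) against chr11:98913334-98913393 for the brightest, gave 0.24 in LWT (adjusted p = 0.00714), -0.29 in LKO (adjusted p = 0.00342) and -0.53 for the difference (adjusted p = 0.00282). Fasted LKO livers were lower than fasted LWT livers by 0.44 on the first probe (adjusted p = 0.000701) and by 0.37 on the second (adjusted p = 0.00117). The fed genotype difference passed on neither, at 0.10 (95% interval -0.06 to 0.26, adjusted p = 0.42) and 0.16 (0.02 to 0.31, adjusted p = 0.123).

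The rise of Igfbp4 in LWT depended on the array weights. LWT_Fed replicate 3 was the highest of its group at 13.9 and had the lowest weight. LWT_Fasted replicate 2 was the lowest of its group at 13.13 and had a weight of 0.43. The part of either array was not tested under equal weights. With equal weights the change in LWT was 0.13 (adjusted p = 0.369) and the difference between responses -0.41 (adjusted p = 0.102). Without LWT_Fed replicate 3 and with weights they were 0.28 (adjusted p = 0.00119) and -0.57 (adjusted p = 0.000893). On slide 1 alone, which held both of these arrays, the difference was 0.02, against -0.51 and -0.75 on slides 2 and 3.

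**Figure D4:**
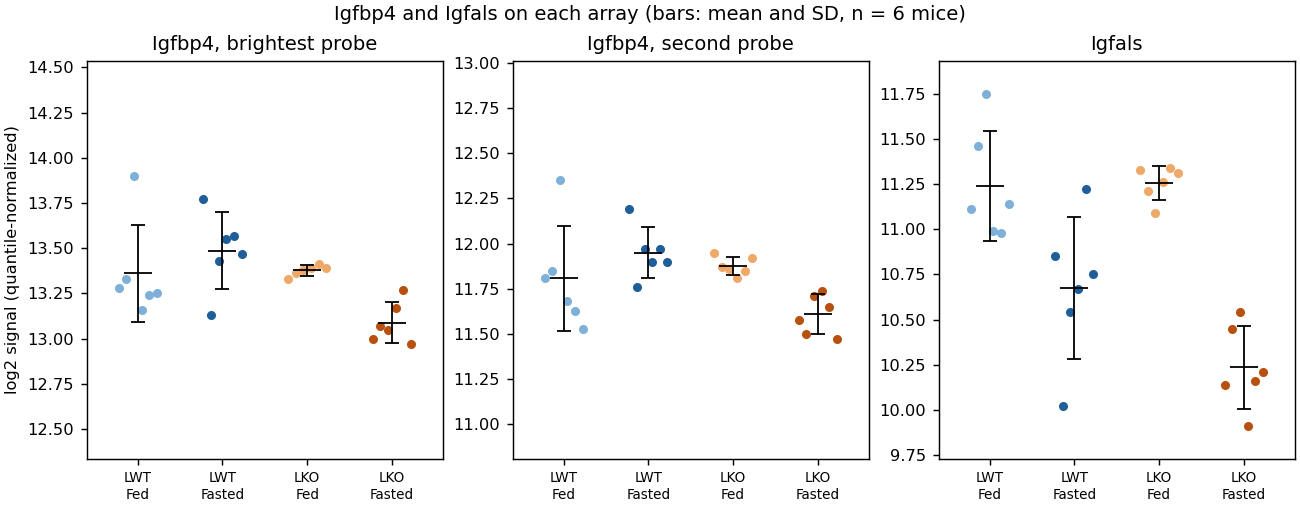
Log2 signal of both Igfbp4 probes and of Igfals on every array, by group, with panels of equal span. Points are mice, bars are means and whiskers are SD (n = 6). LKO_Fasted lies below LKO_Fed without overlap in all 3 panels, and LWT_Fed replicate 3 is the highest LWT_Fed point in each.

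Igfbp5 encodes a binding protein of the extracellular matrix, made in liver mainly by cells other than hepatocytes. Its log2 signal ran from 6.77 to 8.2 in LWT_Fed (median 7.26), from 6.35 to 7.37 in LWT_Fasted (median 6.73), from 6.57 to 7.75 in LKO_Fed (median 7.17) and from 6.02 to 6.67 in LKO_Fasted (median 6.56). It was lower in fasted livers of both genotypes, by 0.70 in LKO (SE 0.236, adjusted p = 0.0207), which was called, and by 0.55 in LWT (SE 0.212, adjusted p = 0.0398), which missed the fold minimum. Fed and fasted arrays overlapped in both genotypes. The call in LKO was lost without LKO_Fasted replicate 2 (-0.60, adjusted p = 0.0551), LKO_Fed replicate 1 (-0.58, adjusted p = 0.0699) or LKO_Fed replicate 4 (-0.55, adjusted p = 0.0625). A second Igfbp5 probe was not above background on any array.

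Among the 8 stellate cell markers, Lrat, which esterifies retinol for storage, fell with fasting by 0.89 (adjusted p = 0.000244, LWT) and 0.95 (adjusted p = 0.000385, LKO). The other 7 were not called. At the adjusted p alone Dcn rose by 0.25 in LWT (adjusted p = 0.0239) and by 0.26 in LKO (adjusted p = 0.0408), Hand2 rose by 0.31 in LWT (adjusted p = 0.03), and in LKO Ecm1 rose by 0.21 (adjusted p = 0.045) and Pdgfrb fell by 0.29 (adjusted p = 0.0106). The median change of the 8 was 0.02 in LWT and 0.03 in LKO. The mean level of the list was 9.82 to 10.33 over the arrays, with medians of 10.15 in LWT_Fed, 10.09 in LWT_Fasted, 10.12 in LKO_Fed and 10.01 in LKO_Fasted. The part of stellate cells in the Igfbp5 values was not tested.

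Igfbp5 also ran beside the mesothelium markers Wt1 and Msln, a comparison made after the values were seen. In LWT_Fed replicate 3 was highest in both (Igfbp5 at 8.2, markers at 7.83) and replicate 4 lowest (6.77 and 6.16), and in LWT_Fasted these were again replicate 3 (7.37 and 7.71) and replicate 4 (6.35 and 5.79). In LKO_Fed replicates 4 (7.75 and 7.44) and 1 (7.57 and 7.47) were the top pair in both, while in LKO_Fasted the highest array was replicate 5 for Igfbp5 and replicate 3 for the markers. The mean level of the markers ran from 6.16 to 7.83 in LWT_Fed, 5.79 to 7.71 in LWT_Fasted, 6.29 to 7.47 in LKO_Fed and 6.17 to 7 in LKO_Fasted. Neither marker passed the test with fasting. In LKO Wt1 changed by -0.58 (adjusted p = 0.0525) and Msln by 0.06 (adjusted p = 0.929). In LWT the changes were -0.4 (adjusted p = 0.144) and -0.7 (adjusted p = 0.163).

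Of the 5 bile duct markers, the keratin Krt19 was called lower in fasted livers of both genotypes, at -0.67 for LWT (adjusted p = 0.00145) against -0.59 for LKO (adjusted p = 0.00941). Spp1 was called lower in LKO (-0.95, adjusted p = 0.00393), and its value in LWT was -0.34 (adjusted p = 0.234). Sox9 of the same list moved the other way, higher by 0.55 in fasted LWT (adjusted p = 0.00194) and by 0.57 in fasted LKO (adjusted p = 0.00352), both below the fold minimum. The mean level of the list ran from 7.26 to 7.97 in LWT_Fed, 7.29 to 7.55 in LWT_Fasted, 6.81 to 7.39 in LKO_Fed and 6.4 to 7.03 in LKO_Fasted. The part of mesothelium or bile duct in the Igfbp5 values was not tested.

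Igfbp6, a binding protein that prefers IGF-2, varied widely within groups, with an SD of 0.71 in LWT_Fed, 0.87 in LWT_Fasted, 0.73 in LKO_Fed and 0.43 in LKO_Fasted. Its group means were 8.14, 7.42, 7.94 and 7.70 in that order. None of its contrasts passed the test, and the change with fasting in LWT was -0.66 (95% interval -1.42 to 0.11, adjusted p = 0.165). It was called without LWT_Fasted replicate 3 (-1, adjusted p = 0.0301) or without LWT_Fed replicate 4 (-0.94, adjusted p = 0.0437).

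The spread of Igfbp6 ran beside that of the mesothelium markers, a comparison chosen after the values were seen. Of the 3 markers listed, Wt1 and Msln passed the filter. In each of the 4 groups the array with the highest Igfbp6 signal was also the one with the highest mean level of these markers. These were LWT_Fed replicate 3 (Igfbp6 at 8.69, markers at 7.83), LWT_Fasted replicate 3 (9.02 and 7.71), LKO_Fed replicate 1 (8.73 and 7.47) and LKO_Fasted replicate 3 (8.33 and 7). The lowest array was shared in 3 of 4 groups. The part of mesothelium or capsule in the Igfbp6 values was not tested.

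**Figure D5:**
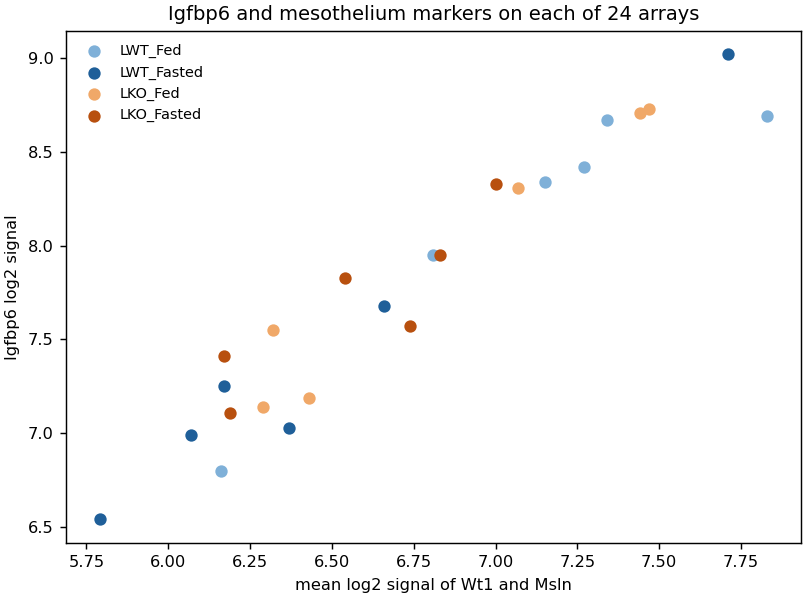
Igfbp6 log2 signal against the mean log2 signal of the mesothelium markers Wt1 and Msln on each of the 24 arrays, coloured by group. The array with the highest Igfbp6 in each group, between 8.33 and 9.02, lies at the right edge of its group.

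Igfbp7, a matrix protein of vessels with low affinity for IGFs, had means of 14.08 in LWT_Fed, 13.90 in LWT_Fasted, 13.85 in LKO_Fed and 13.76 in LKO_Fasted. Its change with fasting in LWT was -0.29 (SE 0.113, adjusted p = 0.0466), which passed narrowly and was not called. The fed genotype difference was of the same size, -0.30 (95% interval -0.54 to -0.06, adjusted p = 0.0851), and did not pass. The remaining pairwise changes of Igfbp7 were -0.11 to -0.10. Among the 8 endothelial markers Lyve1, a hyaluronan receptor of sinusoidal endothelium, was called lower in LKO in fed livers (-0.88, adjusted p = 0.0386), and the median of the list was -0.23 there and -0.12 for fasting in LWT, where 0 were called and Fcgr2b passed the adjusted p (-0.49, adjusted p = 0.0213). Their mean level was 10.54 to 10.72 in LWT_Fed, 9.95 to 10.92 in LWT_Fasted, 10.05 to 10.66 in LKO_Fed and 10.19 to 10.67 in LKO_Fasted. The part of endothelium in the Igfbp7 values was not tested.

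Counted together, 2 of the 10 genes were called with fasting in LWT, Igfbp1 and Igfbp2, both higher, where 10% of all 21372 genes were called in either direction and 4.81% called higher. The count was 4 without LWT_Fasted replicate 3 or without LWT_Fed replicate 4, Igfbp5 and Igfbp6 being added, both lower. At the adjusted p alone 6 of 10 passed, 3 higher and 3 lower, against 42% of all genes. Fed and fasted arrays failed to overlap for 1 member, Igfbp1, and for 21.6% of all genes. In LKO fasting 3 of 10 were called, Igfbp1 higher and Igfals and Igfbp5 lower, against 12.7% of all genes, 5.88% higher and 6.85% lower. The adjusted p alone was passed by 6 members, 2 higher and 4 lower, and by 41.5% of genes. Arrays did not overlap for Igfbp1, Igfals and Igfbp4, 3 of 10 against 22.2%.

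Between genotypes 2 of 10 were called in fed livers, Igfbp1 and Igfbp2, both higher in LKO, against 3.86% of all genes and 2.67% called higher. Both and no other member passed the adjusted p, against 16.8%, and Igfbp2 alone did not overlap, against 8.65%. In fasted livers the called members were again Igfbp1 and Igfbp2, 2 of 10 against 4.04%, or 1.77% called higher. Of 10 members 5 passed the adjusted p, these 2 higher and Igfals, Igfbp3 and Igfbp4 lower, against 20.7%. Igfbp1 and Igfbp2 did not overlap, 2 of 10 against 8.68%, and for Igfbp1 the groups met at 16.44 after rounding. For the difference between the fasting responses limma called 0 members, against 3.13%, and 1, Igfbp4, passed the adjusted p, against 8.16%. At an unadjusted p under 0.05 there were 2, Igfbp4 and Igfals (0.00527). The comparisons share groups, so their counts are not independent.

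The median change over the 10 genes was -0.03 against -0.01 for fasting in LWT, -0.17 against -0.02 for fasting in LKO, -0.04 against -0.01 for genotype in fed livers, -0.08 against 0 in fasted livers and -0.20 against 0 for the difference between the fasting responses, where the first value is that of the members and the second that of all genes.

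The rest of the IGF system was examined in a list of 19 genes, of which 12 passed the filter. Igf2 was not among those that passed. Irs2, the adaptor that links insulin and IGF-1 receptors to phosphoinositide 3-kinase, rose with fasting by 2.61 in LWT (adjusted p = 3.01e-09). In LKO it rose by 1.92 (adjusted p = 9.51e-07), and it was higher in LKO than in LWT both fed, by 1.60 (adjusted p = 7.71e-05), and fasted, by 0.91 (adjusted p = 0.00745). Htra3, a serine protease, rose by 1.57 in LWT and by 0.93 in LKO, while its relative Htra1, which cleaves IGF-binding proteins, fell by 0.62 in LKO (adjusted p = 0.00352). With fasting 2 of 12 were called in LWT and 3 of 12 in LKO, against 10% and 12.7% of all genes. Between genotypes 1 of 12, Irs2, was called in fed and in fasted livers, against 3.86% and 4.04% of all genes.

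For the difference between the fasting responses 1 of the 12 was called lower and 1 higher, against 3.13% of all genes in either direction. These were the adaptor Irs1, at -0.65 (adjusted p = 0.0179), and the RNA-binding protein Igf2bp2, at 0.72 (adjusted p = 0.00578). The insulin receptor gene Insr passed the adjusted p alone (-0.45, adjusted p = 0.0307). Irs1 had a fasting change of 0.23 in LWT (adjusted p = 0.0919) against -0.42 in LKO (adjusted p = 0.00851). Igf2bp2 changed by -0.36 (adjusted p = 0.00648) and 0.36 (adjusted p = 0.0131). The median change of the 12 genes was -0.01 for fasting in LWT and 0.08 in LKO, against -0.01 and -0.02 over all genes.

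Growth hormone signalling, which drives Igf1 and Igfals, was read from 9 genes, all of which passed the filter. The receptor Ghr fell with fasting by 0.72 in LKO (adjusted p = 3.97e-07), was -0.18 in LWT (adjusted p = 0.0626), and its responses differed by -0.54 (adjusted p = 0.00503), below the fold minimum. The feedback inhibitors Socs2 and Socs3 rose in both genotypes, Socs2 by 1.49 (adjusted p = 0.0106, LWT) and 2.58 (adjusted p = 0.000258, LKO), and Socs3 by 1.67 (adjusted p = 2.48e-06) and 1.97 (adjusted p = 1.01e-06). Igfals and Ghr were thus both called lower with fasting in LKO and not in LWT, and for neither was the difference of responses called, that of Ghr passing the adjusted p alone and that of Igfals the fold minimum alone. In fasted livers 2 of the 9 were called higher in LKO, Socs2 and Socs3, and 2 lower, Ghr and Prlr, against 4.04% of all genes in either direction.

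Insulin-repressed targets of FOXO1, the group to which Igfbp1 belongs, were read from 10 other genes, Irs2 among them. With fasting 6 were called higher in LWT, against 4.81% of all genes, and 5 in LKO, against 5.88%. The median over the 10 was 0.70 in LWT and 0.57 in LKO, against -0.01 and -0.02 over all genes. Others of the list went the other way in LKO at the adjusted p alone. Klf15 fell there by 0.57 (adjusted p = 0.011) and Foxo3 by 0.35 (adjusted p = 0.0213). In fed livers 2 were called higher in LKO, against 2.67% of all genes, Irs2 and Pck1, the latter by 0.81 (adjusted p = 0.00916), where Igfbp1 differed by 1.89. In fasted livers Irs2 and Pdk4 were higher in LKO, by 0.91 and 1.17 (adjusted p = 0.0267), and Foxo1 itself and Klf15 were lower, by 0.63 (adjusted p = 0.000741) and 0.67 (adjusted p = 0.00775), 4 of 10 against 4.04% of all genes in either direction. The fasting responses differed between the genotypes for Pdk4, by 1.68 (adjusted p = 0.0426), for Foxo1, by -0.66 (adjusted p = 0.0159), and for Klf15, by -0.82 (adjusted p = 0.0355), 3 of 10 against 3.13%, and the median of this difference was -0.46 against 0 over all genes.

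The genes whose pattern over the 24 arrays was most like that of 3 members were found among 15815 genes with a RefSeq match, by the root mean square difference of log2 signals after centring each gene. For Igfbp1 they were Irs2 (0.60), Tuba8 (0.61) and the leptin receptor Lepr (0.64), with Igfbp1 itself varying by 1.40 on that measure. For Igfbp2 they were Tango6 (0.25), Emp2 (0.46) and Gm33543 (0.50), against 0.90 for Igfbp2 itself. For the brightest Igf1 probe they were Ctbs, Mup20 and Mup1, each at 0.09 against 0.10 for Igf1, so that likeness there says little more than that all 4 were flat.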

How the data were processed

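Per the file headers, Cy3-labelled liver RNA was hybridised to Agilent 1-colour mouse arrays and spot intensity was extracted with Feature Extraction 10.10.1.1, with probe positions on mm9. The deposited matrix holds log2 values that the authors filtered, corrected for washing bath and quantile normalized, with the filter rule not given in the sources used here, and it served as an alternative.

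Here, log2 median spot signals were kept for 32197 probes well above background on at least 5 of 6 arrays of a group, then quantile normalized. Array weights, group means and slide (3 slides, each with 2 arrays per group) were fitted with limma 3.58.1 in R 4.3.3, with Benjamini-Hochberg adjustment over all kept probes. The slide stands in for the bath. The p-values measure the spread between mice. The fit was tested on simulated data. The members and lists were chosen with earlier results of these data known. By rule, all 10 members and the 3 most alike genes of Igf1, Igfbp1 and Igfbp2 were named, and called genes of the lists could be named. The number of arrays, 24, limits the precision. Alternatives changed signal, background correction, normalization, filter, weights, slide term, arrays, probes and call rule.

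Marker lists covered hepatocytes, endothelium, stellate, Kupffer and bile duct cells, mesothelium, fat and pancreas. Calls not described with a result are given here. In fed livers 1 of 5 bile duct markers was called, lower in LKO, and 1 in fasted livers. Of 3 fat markers 2 were kept and 0 were called, with 1 past the adjusted p with fasting in each genotype. Of 3 pancreas markers 1 was kept, called lower with fasting in both genotypes and higher in LKO both fed and fasted.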

Additional observations from a re-analysis of the deposited data

Results flagged for a closer look

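In 40 sets of 6 arrays, 1 for each gene and group, the highest or lowest array was checked for its gap from the others, and 5 sets had 1 array far off by Dixon's criterion, which chance gives in about 1 in 20 sets. Igf1 in LWT_Fasted was highest in replicate 5, at 16.34, with the next at 16.11. Igfbp1 in LKO_Fed was lowest in replicate 6, at 14.24, with the next at 15.5, and this array alone made the fed groups overlap. Igfbp2 in LKO_Fed was highest in replicate 2, at 16.63, with the next at 16.12. Igfbp4 in LWT_Fed was highest in replicate 3, at 13.9, with the next at 13.33. Igfbp5 in LKO_Fasted was lowest in replicate 2, at 6.02, with the next at 6.49.

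The fasting response of Igfbp4 differed between the genotypes by -0.54 in the limma fit (adjusted p = 0.00594), and over 34 alternatives the adjusted p ranged from 0.000893 to 0.102, passing in 33.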

How the results depend on the processing

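The calls of Igfbp1 and Igfbp2 held under all 35 alternatives in each comparison in which they were made, and that of Igfals with fasting in LKO likewise, while Igfbp5 with fasting in LKO was called in 31 of 35. Without a minimum fold change the members called rose to 6 with fasting in LWT, 6 in LKO, 5 between fasted genotypes and 1 for the difference between responses. That difference also gave 1 member, Igfals, with the deposited matrix (-0.6, adjusted p = 0.0435). Leaving out each array in turn gave 2 to 4 members with fasting in LWT, 2 to 3 in LKO, 2 in both genotype comparisons and 0 to 2 for the difference between responses. LWT_Fasted replicate 3 and LWT_Fed replicate 4 each moved the count for fasting in LWT to 4, adding Igfbp5 and Igfbp6. Igfbp5 with fasting in LWT was called in 7 of 35 alternatives, and the adjusted p there was passed by Igfals in 30 of 35, by Igfbp5 in 28 and by Igfbp7 in 20. Without LKO_Fasted replicates 1 and 2 the count in LKO was 2, Igfbp5 being lost (-0.6, adjusted p = 0.0763). The difference between responses of Igfbp4 passed the fold minimum without LWT_Fasted replicate 3 (-0.59). The causes were not tested. No called member value changed sign in 315 values, and 26 of 1425 values not called did, none larger than 0.25 in the reported fit.

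Replicate numbers did not pair the arrays, with 8 of 36 same-number pairs correlated above 0.1 and a range of -0.28 to 0.21. With the replicate block added, 1 member was called for the difference between responses, Igfals (-0.7, adjusted p = 0.0455), and 1032 in place of 905 probes. Within single slides, with 2 arrays per group, Igfbp1 rose with fasting by 1.59 to 1.96 in LWT and by 1.32 to 2.86 in LKO, and Igfbp2 differed by 1.03 to 2.14 between fed genotypes. Igfals fell by 0.98 to 1.08 with fasting in LKO.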
